A study of Mus musculus with 4 samples.

Results

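The comparison set muscle stem cells of old mice grown on a stiff silicone substrate (29 kPa) against muscle stem cells of old mice grown on a softer one (12 kPa). Every cell of the 2 libraries that passed the filters was used, 1738 cells on 29 kPa and 1333 cells on 12 kPa, together 3071 of the 5910 cells of the series. All cells came from skeletal muscle of wild-type C57BL/6 mice and were cultured for 7 days on polydimethylsiloxane, an elastic silicone, in medium with 10% fetal bovine serum and antibiotics. Trypsin detached the cells, and their transcripts were counted cell by cell in droplets by a method that reads the 3' ends. The other groups of the series were young mice on 12 kPa (1360 cells) and on 29 kPa (1479 cells), and they are cited only beside a result in the old cells. The labels used here say neither how old nor how many the mice were. Each group was 1 library, so no difference has a replicate check, no p-value is given, and substrate and library cannot be told apart.

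Muscle stem cells, or satellite cells, are marked by the transcription factor Pax7 and stay quiet until muscle is damaged. Once active they divide as myoblasts, switch on Myog, the transcription factor of commitment, leave the cell cycle and build contractile proteins before they fuse into fibres. Notch signalling between neighbouring cells is known to hold satellite cells in the stem state, and it acts through the transcription factor Rbpj and target genes such as Hes1 and Heyl. The stiffness of the surface under cultured muscle stem cells is known to affect how they divide and differentiate.

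A level below is the CPM of a gene, that is, its unique molecules (UMIs) per 1000000 UMIs of the cell, averaged over cells. Differences are log2 ratios of CPM plus 5, 29 over 12 kPa, for genes that reached 20 CPM on 12 or 29 kPa, and a gene is called past the fold where CPM plus 5 differed at least 1.3-fold. The added 5 understates the ratio of low genes. Ratios of summed UMIs, each scaled to the total of its cells, have 95% intervals from the exact binomial given both sums, and shares of cells have exact (Clopper-Pearson) 95% intervals. Both cover counting error only, not the spread between cultures or mice. The intervals of UMI ratios also take every UMI as independent. They leave out the spread between cells and are too narrow where few cells hold most of the UMIs.

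The libraries held 47503854 UMIs on 12 kPa and 68222686 on 29 kPa, with a median of 33315 and 37081 UMIs per cell. The median mitochondrial share was 5.63% and 5.94%. Cells with under 1% mitochondrial UMIs numbered 83 and 109, of which 71 and 87 fell in the middle Myog bin defined below. No cell barcode was shared between the libraries of old cells, and 1 barcode was shared between old cells on 29 kPa and young cells on 12 kPa. The cell type label was checked against markers: Pax7, Myf5, Cdh15, Itga7, Vcam1 and Sdc4 were all detected and summed to 644 CPM on 12 kPa and 626 CPM on 29 kPa, while myocyte markers such as Acta1 and Mylpf summed to 48281 and 55581 CPM. Myocyte genes therefore far outweighed those of stem cells in both libraries. Endothelial markers summed to 1.3 and 1.51 CPM, epithelial markers to 0.703 and 0.333 CPM, leukocyte markers to 17.7 and 17.6 CPM and glial markers to 14.6 and 8.91 CPM. Fibroblast markers summed to 209 and 159 CPM, nearly all from Gsn (146 and 122 CPM) and Ly6a, while the defining Pdgfra (0.653 and 0.449 CPM) and Lum (0 and 0.0215 CPM) were near 0. Tenocyte markers summed to 295 and 305 CPM, nearly all from Scx (292 and 301 CPM), pericyte and smooth muscle markers to 4573 and 5152 CPM, nearly all from Des, which muscle cells also express, and adipocyte markers to 45.3 and 43.7 CPM. None of the 6 erythroid markers was among the genes used here.

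Fewer of the old cells were without Myog on the stiff substrate, and more held an intermediate level. Cells were placed in a low, a middle and a high bin by their Myog level, with cuts at 7 and 11 on the log2(CPM + 1) scale (127 and 2047 CPM). The low bin held 20.3% of cells on 12 kPa (interval 18.2 to 22.6%, 271 cells) and 15.1% on 29 kPa (13.5 to 16.9%, 263 cells). The middle bin held 47.2% (44.5 to 49.9%, 629 cells) and 56.1% (53.7 to 58.4%, 975 cells), and the high bin 32.5% (29.97 to 35.1%, 433 cells) and 28.8% (26.6 to 31.0%, 500 cells). The intervals of the low and middle bins did not overlap between substrates, and those of the high bin did. Cells with no Myog UMI made up 13.4% and 8.98%. Thinning every cell to 10000 UMIs, which left out 11 cells on 12 kPa and 2 on 29 kPa, gave 21.3% and 16.4% in the low bin, 46.3% and 54.0% in the middle bin and 32.5% and 29.7% in the high bin. In young cells the low bin held 38.7% and 37.7%, the middle bin 31.2% and 32.7%, and the high bin 30.1% and 29.6%.

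**Figure D1:**
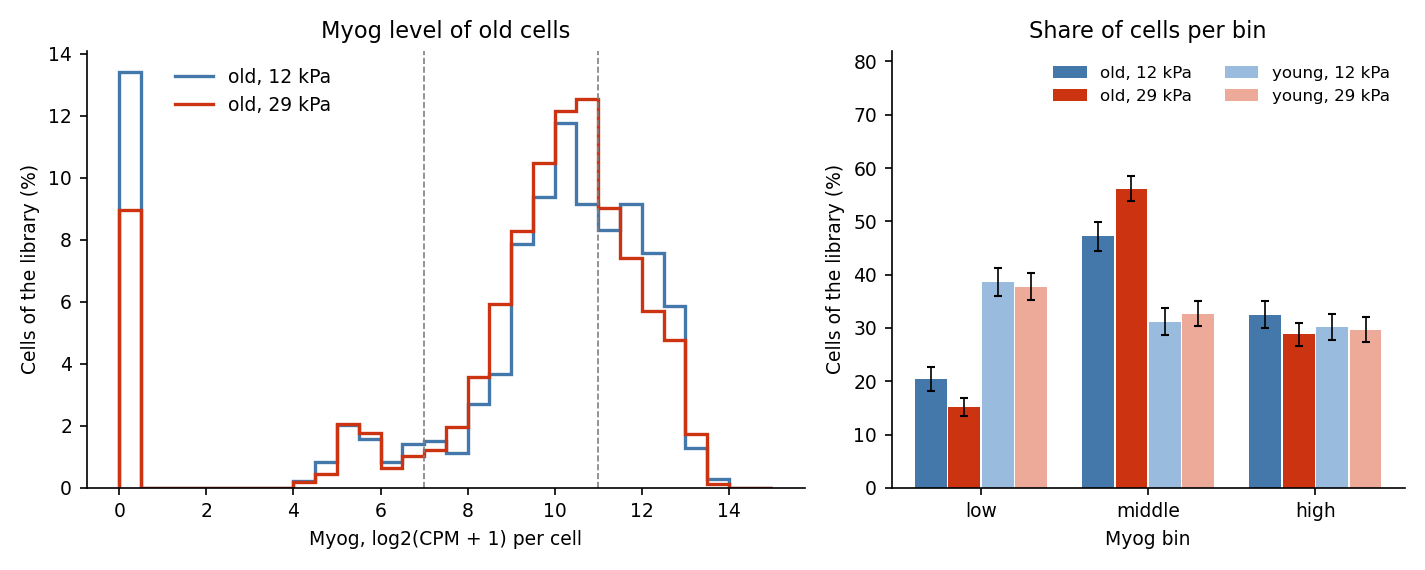
Left, distribution of the Myog level per cell, log2(CPM + 1) in steps of 0.5, as the percentage of each library of old cells, with dashed lines at the bin cuts of 7 and 11. Right, share of each library per Myog bin with exact 95% binomial intervals, in which the middle bin of old cells is at 47.2% on 12 kPa and 56.1% on 29 kPa.

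The bins are ranges of a continuous level and not cell types. Within 0.5 of the lower cut lay 19 and 18 cells below it and 20 and 21 above it on 12 and 29 kPa, and within 0.5 of the upper cut 122 and 218 below it and 111 and 157 above it. With cuts at 6 and 10 the gain of the middle bin shrank from 8.91 to 4.58 percentage points, and the high bin went from 3.71 points lower to 0.04 points higher on 29 kPa. Mylpf, the fast regulatory myosin light chain, had a median of 75.01 and 107 CPM in low-bin cells, 18883 and 20285 CPM in middle-bin cells and 14347 and 13776 CPM in high-bin cells. Crossing the Myog bins with the same cuts on Mylpf placed the difference: cells middle in Myog and high in Mylpf were 42.5% on 12 kPa (39.9 to 45.2%) and 51.7% on 29 kPa (49.3 to 54.0%), and cells low in both were 14.7% (12.8 to 16.7%) and 9.15% (7.83 to 10.6%). Median depth followed the bins: it was 23301 and 24341 UMIs per cell in the low bin, 36411 and 39382 in the middle bin and 34961 and 38296.5 in the high bin.

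Over all cells, 13 of 5552 genes were past the fold higher on 29 kPa (0.234%) and 49 lower (0.883%), and the median ratio over all genes was -0.03. With median-of-ratios scaling in place of CPM the counts were 17 higher and 31 lower. The lowest ratio was that of AY036118 (-0.89), a gene model known to collect reads of ribosomal RNA. Each of the 49 lower genes had its highest level in the low Myog bin on 12 kPa, a trait whose share over the whole table was not counted. The low bin held a smaller share of cells on 29 kPa, so genes highest there tend to be lower over all cells through the shares alone. That count follows in part from how these 49 genes were picked. They included the Notch target Hes1 (-0.73), the surface antigen gene Ly6a, also called Sca-1 (-0.73), the fatty acid binding protein Fabp7 (-0.67), the mitotic genes Ccnb1 (-0.66), Cdc20 (-0.54) and Ube2c (-0.50), the secreted factors Igfbp5 and Spp1 (both -0.44), the actin regulator Cald1 (-0.44), the collagen genes Col8a1 (-0.43), Col5a2 (-0.39) and Col1a2 (-0.38), and the receptor Notch1 (-0.40). The higher genes included the muscle genes Ankrd2 (0.51), Actn2 (0.41) and Myh7 (0.38).

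Setting both libraries to the same shares of cells in the 3 bins removed most of the lower calls. Of 5525 genes tested after this matching, 9 were higher past the fold (0.163%) and 6 were lower (0.109%), with a median ratio of -0.02 over all genes. Of the 49 genes lower over all cells, 49 stayed below 0 when matched but 5 were still past the fold, and their median ratio went from -0.43 to -0.23. The change in the shares of cells made up a median of 47.5% of the difference in mean CPM of these 49 genes (middle 50% of genes, 40.3 to 57.0%). Within bins, 49 of the 49 were below 0 in the low bin, 36 in the middle bin and 34 in the high bin. These genes were picked for being lower over the same cells, so their matched and within-bin signs follow in part from that choice. The median ratio of all genes tested was also below 0 in the low (-0.01), middle (-0.02) and high bin (-0.01). The 13 genes that were higher over all cells depended less on the shares: 8 were still past the fold when matched, their median ratio went from 0.62 to 0.60, and the shares made up a median of 4.55% of their difference. Among those 8 were Hist1h2ap, Gstp1, Gm10076, Usp50, Bloc1s1 and Grcc10, which are given apart below with their shared sequence. Dqx1, whose middle-bin mean rested on few cells, was among them too. The muscle genes Ankrd2, Actn2 and Myh7 were not past the fold when matched.

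**Figure D2:**
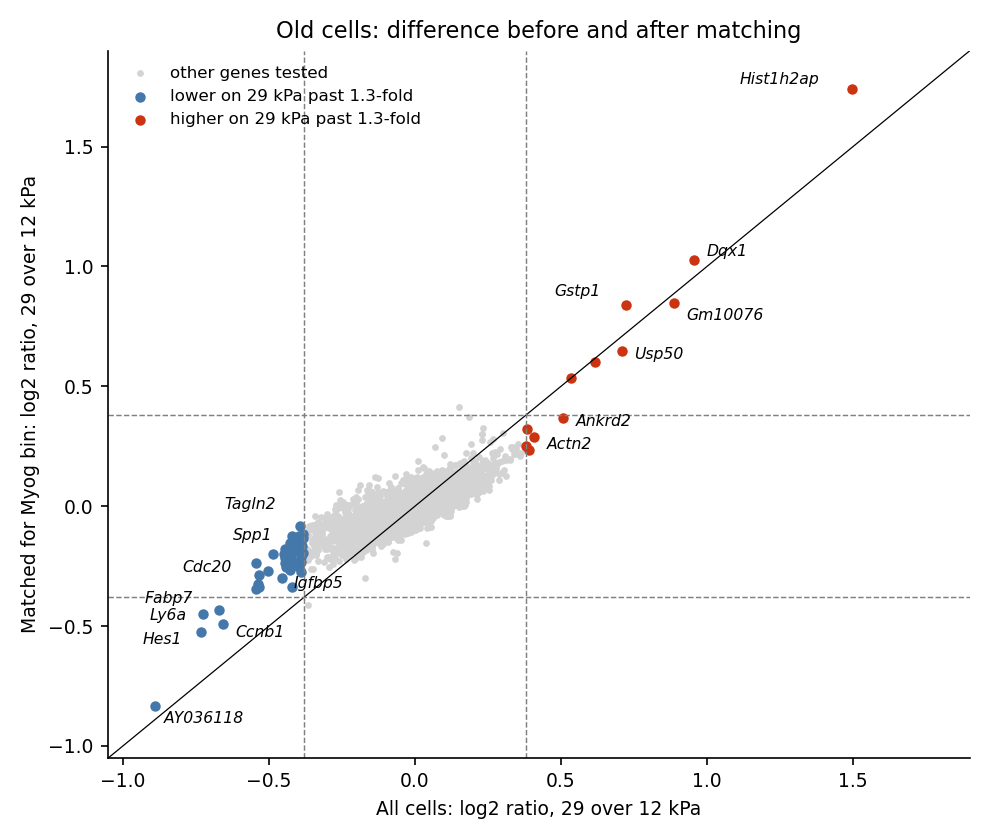
Each point is a gene tested, with its log2 ratio of CPM plus 5 (29 over 12 kPa) over all old cells on the horizontal axis and after matching for Myog bin on the vertical axis; dashed lines mark 1.3-fold and the solid line equality. Most genes lower over all cells (blue) move above the solid line, while Hes1 (-0.73 and -0.52) and AY036118 (-0.89 and -0.84) stay past the lower dashed line on both axes.

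Gene lists showed the same division. Of the 20 measured genes of the G2 and M phases, 10 were past the fold lower over all cells with a list median of -0.39, and 1 of 19 when matched with a median of -0.18. Of those 10, 5 reached the floor of 20 CPM on 12 kPa alone, and with the floor set on the mean of both libraries 8 of 18 were past the fold lower, with a median of -0.37. Cytoplasmic actin genes and targets of the actin-responsive factor SRF had 6 of 38 lower and a median of -0.24 over all cells, and 0 of 38 and -0.05 when matched. Collagens and basement membrane genes had 3 of 15 lower and a median of -0.25, and 0 of 15 and -0.02 when matched. Targets of YAP and TAZ, the coactivators best known for responding to stiffness, had 0 of 20 past the fold either way, with a median of -0.13 over all cells and -0.05 matched. Genes of the TGF-beta response had 0 of 17 past the fold and medians of -0.19 and -0.05. Contractile lists lay on the other side: thick and thin filament genes had 25 of 26 members above 0 and a median of 0.20 over all cells, which became 0.09 when matched. Fast and perinatal fibre genes went from 0.26 to 0.12 and slow fibre genes from 0.24 to 0.09. The title of the study names RNA decay, and its lists stayed near the median of all genes: when matched, deadenylation genes had a median of 0.01, decapping genes -0.05, genes of nonsense-mediated decay -0.04, genes of the RNA exosome -0.01 and AU-rich element binding proteins -0.06. Of all members of these 5 lists, Zfp36l2, which binds AU-rich elements and promotes decay, was past the fold over all cells, at 41.8 and 29.8 CPM (-0.43), and its matched ratio was -0.15. The log2 ratios over all cells were -0.02 for the 5' exonuclease Xrn1, -0.15 for the decapping enzyme Dcp2, 0.04 for Cnot1, the scaffold of the deadenylase complex, and -0.02 for the helicase Upf1 of nonsense-mediated decay.

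**Figure D3:**
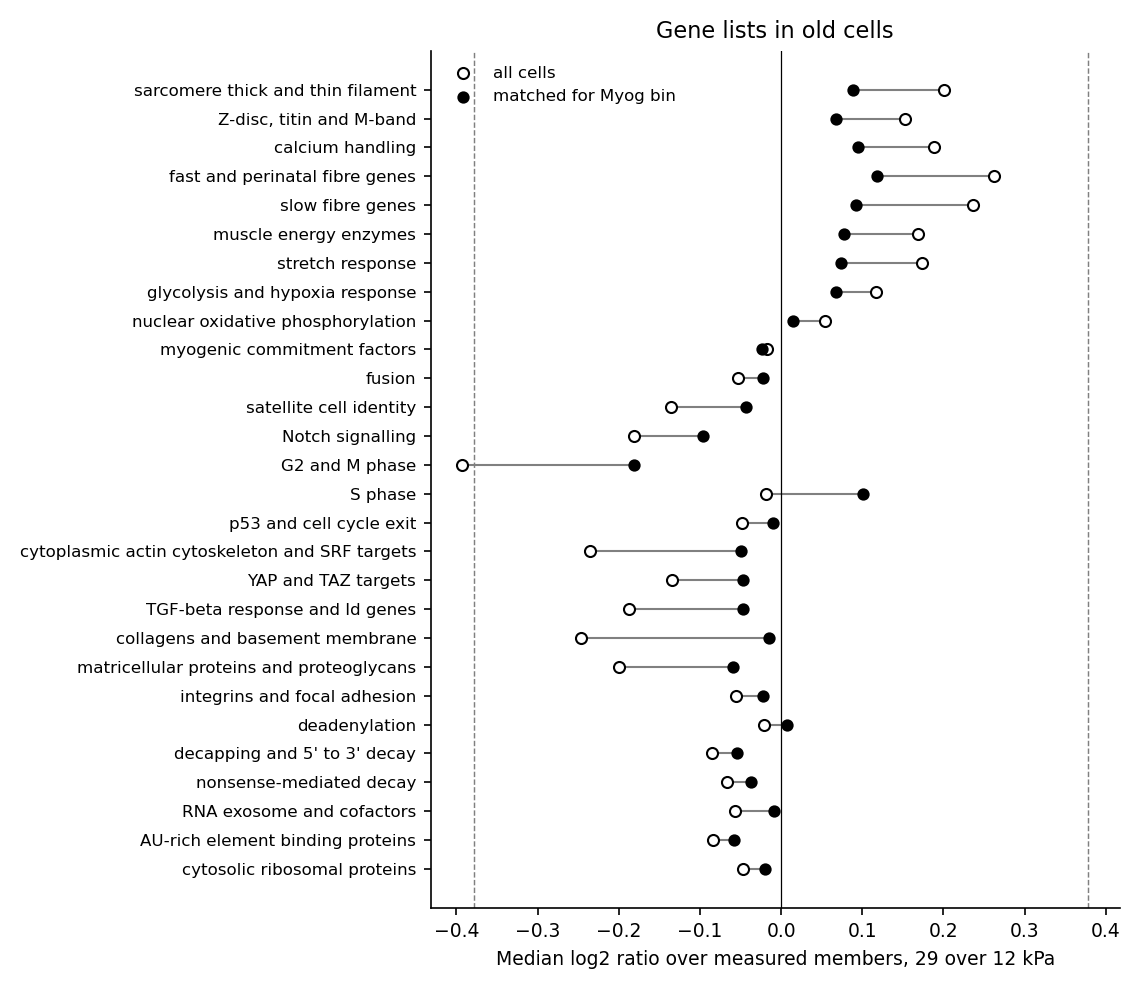
Median log2 ratio of CPM plus 5 (29 over 12 kPa) over the measured members of 28 gene lists in old cells, over all cells (open circles) and matched for Myog bin (filled circles), with dashed lines at 1.3-fold. The filled circles lie nearer 0 than the open ones except for S phase genes, which go from -0.02 to 0.10, and myogenic commitment factors, at -0.02 in both.

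Hes1 was the gene with known function whose matched ratio was lowest, and it was lower on the stiff substrate in each Myog bin. Hes1 is a transcriptional repressor and a direct target of Notch. Its mean was 107 CPM on 12 kPa and 62.5 CPM on 29 kPa. In the low bin it was 351 and 240 CPM, in the middle bin 50.4 and 32.4 CPM and in the high bin 37.1 and 27.95 CPM. The ratios of summed UMIs were 0.741 (0.695 to 0.790), 0.712 (0.656 to 0.773) and 0.839 (0.747 to 0.941), so each interval lay below 1. Matched for bin, the log2 ratio was -0.52, and it ranged from -0.57 to -0.40 over 15 other settings and was past the fold in 15 of them. The difference sat in the amount per cell more than in the share of cells with the transcript. In cells of the low bin thinned to 10000 UMIs, a Hes1 UMI was found in 60.6% on 12 kPa and 57.3% on 29 kPa, whereas 5 or more were found in 25.3% and 18.3%. Cells of the low bin with Mylpf under 7 on the log2 scale had 412 and 250 CPM of Hes1, but low-bin cells with middle Mylpf had 222 and 261 CPM. Within the low bin the difference thus lay in the cells of low Mylpf. Hes1 was also lower in the middle bin, where 90.1% of cells on 12 kPa and 92.1% on 29 kPa were high in Mylpf. In young cells the matched ratio was 0.04.

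Of the other genes of the Notch pathway, Notch1 was past the fold over all cells, and none was when matched. Over all cells Notch1 reached the floor of 20 CPM on 12 kPa alone (24.6 and 17.5 CPM). The list held 8 measured genes over all cells and had a matched median of -0.10, and Hes1 was the 1 member past the fold there. The receptor Notch1 was at 51.9 and 43.4 CPM in the low bin, 10.49 and 8.25 CPM in the middle bin and 27.97 and 21.8 CPM in the high bin, with a matched ratio of -0.25. Heyl, a further target, was at 146 and 125 CPM in the low bin (UMI ratio 0.815, 0.741 to 0.896) and had a matched ratio of -0.13. In cells thinned to 10000 UMIs, a Heyl UMI was found in 68.4% of the low bin on 12 kPa (62.5 to 73.9%) and 53.8% on 29 kPa (47.6 to 59.97%). These intervals do not overlap, but they cover counting error within 1 library a side. In low-bin cells with Mylpf under 7 on the log2 scale, mean Heyl was level at 147 and 144 CPM (-0.03). For Notch1 the thinned shares were 36.4% (30.7 to 42.5%) and 32.4% (26.8 to 38.5%) in the low bin and 16.8% and 11.8% over all cells. The receptor Notch3 had a matched ratio of 0.09, the transcription factor Rbpj -0.07, the ligand Jag2 0.06, the protease Adam10, which cuts the receptor, -0.12, and Hes6, a relative of Hes1 found in committing cells, -0.01. Dll1, a ligand expressed by committing cells, was at 39.3 and 31.6 CPM in the high bin (-0.27). Most of these ratios were below 0, but so was the median matched ratio of all 5525 genes tested (-0.02). Notch3, Rbpj, Jag2, Adam10 and Hes6 were picked with their values in view, so the signs say nothing about the pathway as a whole.

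**Figure D4:**
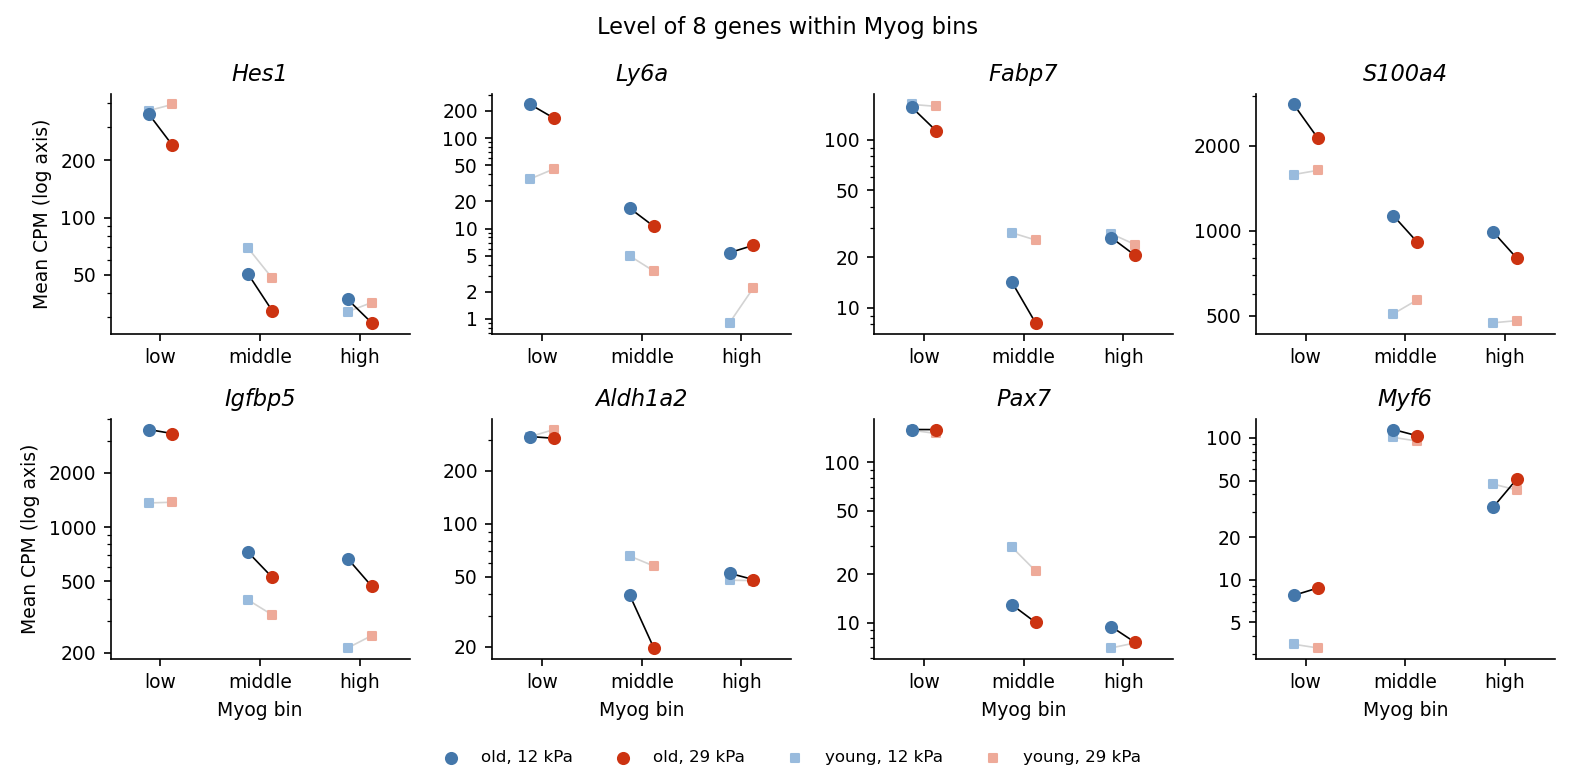
Mean CPM (log axis) of 8 genes in each Myog bin, for old cells on 12 kPa (blue circles) and 29 kPa (red circles), joined by a black line, and for young cells (squares); each point is 1 library, with no error bar. Hes1 and S100a4 are lower on 29 kPa in all 3 bins of old cells, Pax7 is level in the low bin (160.3 and 160.1 CPM), and Myf6 is past 1.3-fold in the high bin alone.

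Ly6a, Fabp7 and S100a4 were past the fold lower in the low bin. Ly6a was at 236 and 166 CPM in the low bin (UMI ratio 0.704, 0.654 to 0.758), 16.7 and 10.6 CPM in the middle bin and 5.41 and 6.53 CPM in the high bin, so the high bin went the other way. Fabp7 was at 156 and 114 CPM, 14.3 and 8.15 CPM, and 26.2 and 20.5 CPM in the low, middle and high bins, lower on 29 kPa in each. In the middle bin both genes were under the 20 CPM floor, and in the high bin neither was past the fold. S100a4, a calcium-binding protein of motile cells, was among the most abundant genes that differed, at 2797 and 2129 CPM, 1131 and 912 CPM, and 993 and 799 CPM, with ratios of -0.39 in the low bin and -0.31 in each of the others. Cutting the last 500 bases of the reference transcripts into 30-base words showed that 49.3% of the words of S100a4 also occur in the gene model Gm42674. For Ly6a, 27.0% of the words occur in other genes, so the counts of S100a4 and Ly6a are less certain. Hes1 and Fabp7 shared none. The matched ratios in young cells were 0.25 for Ly6a, -0.06 for Fabp7 and 0.07 for S100a4. The difference between ages was not tested.

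The genes that define the stem state itself were level within the low bin. Pax7 was at 160.3 CPM on 12 kPa and 160.1 CPM on 29 kPa there (UMI ratio 0.964, 0.884 to 1.05), and Myf5, an early myogenic factor, was at 186 and 193 CPM. Over all cells Pax7 was at 41.8 and 32.01 CPM, and the shares of the bins made up 78.1% of that difference. Of 16 measured satellite cell genes in the low bin, 0 were past the fold either way, with a median of -0.02. Myod1 (matched ratio 0.01), Myog (-0.02) and the cell cycle inhibitors Cdkn1a (0.00) and Cdkn1c (0.11) also stayed within the fold. Pax7 and Hes1, both highest in the low bin, therefore differed by unequal amounts between the substrates.

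The low bin, which holds the undifferentiated cells, differed most between the substrates. Of 6236 genes tested in it, 117 were higher past the fold on 29 kPa (1.88%) and 89 lower (1.43%), against 12 higher (0.229%) and 7 lower (0.134%) of 5234 in the middle bin and 20 (0.375%) and 13 (0.244%) of 5330 in the high bin. The low bin also held the fewest cells, and counting error alone widens its ratios: the interval of a named gene reached a median of 13.5% above its ratio there and 10.3% in the middle bin. The number of calls in a bin was not tested against this.

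Mitotic genes were prominent among the low bin's lower calls. Of 37 measured genes of the G2 and M phases, 22 were past the fold lower, 0 were higher and 37 lay below 0, with a median of -0.46 beside -0.01 over all genes of the bin. With the floor on the mean of both libraries these were 21 of 36 and -0.45. Ccnb1, the cyclin that starts mitosis, was at 87.6 CPM on 12 kPa and 45.7 CPM on 29 kPa (UMI ratio 0.494, 0.436 to 0.560). Cdc20 and Ube2c, an activator and the ubiquitin-conjugating enzyme of the anaphase-promoting complex, were at 106 and 62.4 CPM and at 207 and 125 CPM. The kinetochore gene Cenpf was at 163 and 86.1 CPM, the topoisomerase Top2a at 373 and 270 CPM, the proliferation marker Mki67 at 161 and 115 CPM, and the kinase Cdk1 at 154 and 115 CPM. A Ccnb1 UMI was found in 30.3% and 26.6% of low-bin cells, and the 5 highest cells held 16.6% and 27.6% of Ccnb1 in the low bin. By the 30-base words described above, 36.8% of Ccnb1 and 29.1% of Cdc20 occur in other gene models, so their counts are less certain too.

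Genes of DNA replication in the same bin were higher on the stiff substrate. Of 34 measured S phase genes, 9 were past the fold higher and 0 lower, 29 lay above 0 and 5 below, and the median was 0.24. The helicase subunits Mcm2 (23.2 and 34.6 CPM), Mcm3 (57.7 and 82.6 CPM) and Mcm5 (32.4 and 47.2 CPM), the chromatin remodeller Hells (38.0 and 54.8 CPM), the polymerase clamp Pcna (36.7 and 50.9 CPM) and Ccne1, the cyclin of entry into S phase (31.2 and 44.1 CPM), were past the fold; Pcna shares 24.8% of its words with a pseudogene. Ccnd2, a cyclin of the G1 phase outside this list, was at 42.3 and 65.3 CPM. The medians of the mitotic and S phase lists of the low bin thus lay on opposite sides of 0.

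The share of cycling cells differed less than these levels. After thinning to 10000 UMIs, 10 or more UMIs of G2 and M genes were found in 36.8% of low-bin cells on 12 kPa (31.0 to 42.9%) and 35.5% on 29 kPa (29.7 to 41.6%), with a mean of 37.9 and 27.1 such UMIs per cell. For S phase genes the shares were 45.7% and 46.6% and the means 18.3 and 21.8. Cells with both Mki67 and Top2a, without thinning, were 31.0% of the low bin on 12 kPa (84 cells, 25.5 to 36.9%) and 25.1% on 29 kPa (66 cells, 19.97 to 30.8%), and these intervals overlap. In the high bin such cells were 1.85% (8 cells) and 3.40% (17 cells).

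In the high bin most mitotic genes were above 0, though the levels were low. Of 10 measured G2 and M genes 5 were past the fold higher on 29 kPa, but 3 of these reached 20 CPM on 29 kPa alone, and with the floor on the mean of both libraries 3 of 7 were past it with a median of 0.30. Over the 37 members tested in any bin, whatever their high-bin level, 36 were above 0 and 1 below, which was Ccnb1 at 21.04 and 15.6 CPM (-0.34). Those higher included Top2a at 31.5 and 48.0 CPM, Cdk1 at 13.7 and 22.7 CPM, Cenpf at 21.9 and 33.8 CPM and Ube2c at 19.4 and 29.6 CPM. The 5 highest cells held 86.3% and 65.2% of the Top2a of the high bin, so these means rest on very few cells. In young cells, the low-bin levels of Ccnb1 were 94.7 and 101 CPM and those of Ube2c 217 and 235 CPM.

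**Figure D5:**
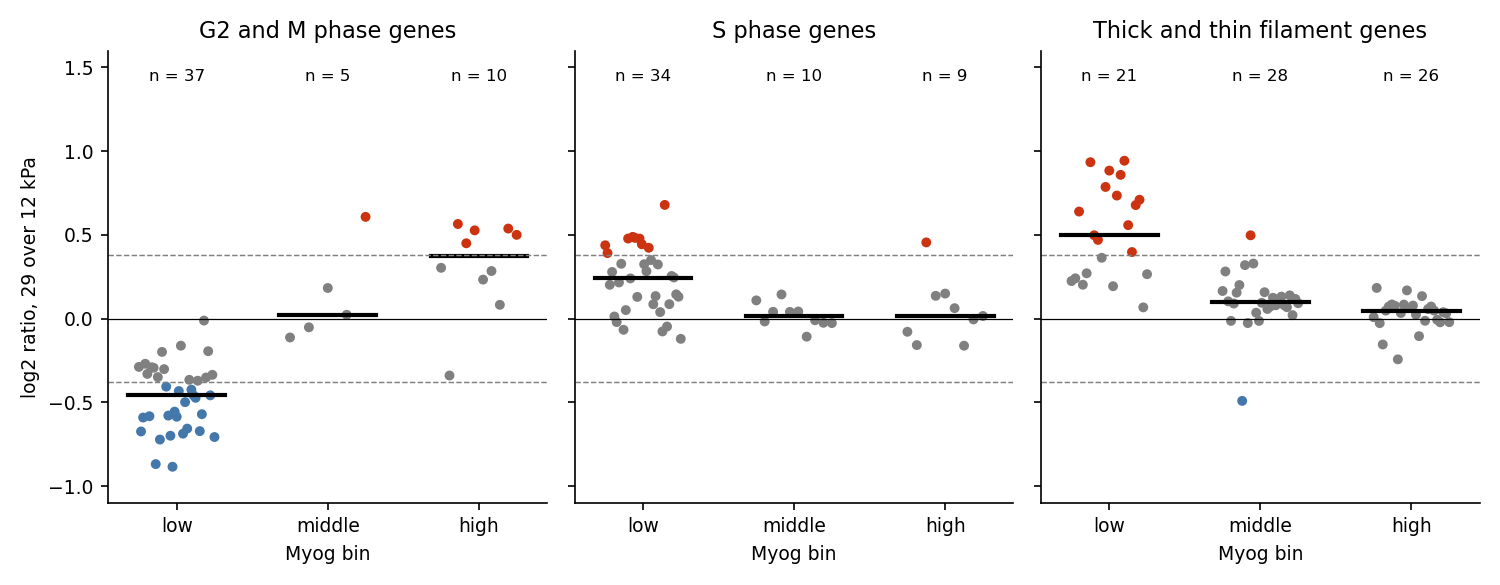
Log2 ratio of CPM plus 5 (29 over 12 kPa) of each measured member of 3 gene lists in old cells, by Myog bin; black bars are medians, dashed lines 1.3-fold, and coloured points genes past it. In the low bin the G2 and M genes have a median of -0.46, the S phase genes 0.24 and the filament genes 0.50.

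Mitotic genes are known to be switched on together through promoter elements called the CCAAT box, bound by NF-Y, and the cell cycle genes homology region (CHR), bound by MuvB complexes. The 250 bases before the start of 4 of them that were lower in the low bin are shown so that these elements can be seen, from RefSeq on the build GRCm38.p6, written 5' to 3' on the strand of the gene. Capitals mark CCAAT (or ATTGG on the other strand) and TTTGAA (or TTCAAA). The windows are chr13:100786487-100786736 (minus strand) for Ccnb1, chr4:118437344-118437593 (minus) for Cdc20, chr2:164769679-164769928 (plus) for Ube2c and chr10:69352913-69353162 (minus) for Cdk1.
Ccnb1: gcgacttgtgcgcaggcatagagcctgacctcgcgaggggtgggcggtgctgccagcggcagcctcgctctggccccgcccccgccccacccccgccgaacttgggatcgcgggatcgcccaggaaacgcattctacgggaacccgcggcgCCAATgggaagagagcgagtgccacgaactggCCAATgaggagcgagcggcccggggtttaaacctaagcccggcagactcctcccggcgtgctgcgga
Cdc20: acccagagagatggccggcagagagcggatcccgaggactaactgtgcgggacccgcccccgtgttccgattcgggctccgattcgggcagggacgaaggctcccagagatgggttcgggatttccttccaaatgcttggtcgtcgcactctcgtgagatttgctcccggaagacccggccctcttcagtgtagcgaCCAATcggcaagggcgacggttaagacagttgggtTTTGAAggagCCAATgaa
Ube2c: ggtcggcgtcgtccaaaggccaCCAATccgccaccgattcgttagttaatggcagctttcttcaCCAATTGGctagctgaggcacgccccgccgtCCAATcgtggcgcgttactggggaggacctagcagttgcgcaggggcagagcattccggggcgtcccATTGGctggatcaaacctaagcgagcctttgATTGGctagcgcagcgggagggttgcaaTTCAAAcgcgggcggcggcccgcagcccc
Cdk1: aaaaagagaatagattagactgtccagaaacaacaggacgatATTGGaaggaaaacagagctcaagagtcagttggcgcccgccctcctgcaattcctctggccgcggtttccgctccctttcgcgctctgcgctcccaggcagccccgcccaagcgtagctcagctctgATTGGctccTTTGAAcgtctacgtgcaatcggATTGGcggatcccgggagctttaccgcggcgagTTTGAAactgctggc
The Ccnb1 window held 2 CCAAT matches and no CHR match, that of Cdc20 2 and 1, that of Ube2c 6 and 1, and that of Cdk1 3 and 2. Counted on both strands with overlaps, CCAAT occurred in 28 of the 34 windows found for the 38 G2 and M genes (82.4%), in 19 of 32 for S phase genes (59.4%), in 8 of 27 for thick and thin filament genes (29.6%) and in 34.5% of all 27025 windows of the table. TTTGAA occurred in 11 of 34 (32.4%), 6 of 32 (18.8%), 1 of 27 (3.70%) and 16.3%. A match of these letters is a description of the sequence and not a bound site.

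Mean levels of contractile genes were higher on the stiff substrate in the low bin, where they were lowest, while the median cell was level. Of 21 measured thick and thin filament genes, 13 were past the fold higher and 0 lower, with a median of 0.50. After thinning to 10000 UMIs, the median low-bin cell had 23 filament UMIs on 12 kPa and 24 on 29 kPa, against means of 70.9 and 99.8. The part of free RNA from neighbouring myocytes in these UMIs was not tested. In that list the slow troponin Tnni1 at 289 and 560 CPM, Mylpf at 735 and 1360 CPM, and embryonic myosin Myh3 at 90.2 and 129 CPM. Outside it, the giant spring protein Ttn was at 192 and 360 CPM. Cox6a2, the muscle subunit of cytochrome oxidase, was at 32.2 and 83.4 CPM (UMI ratio 3.11, 2.69 to 3.60). These means rest on few cells that have contractile genes without much Myog: the 5 highest cells held 51.9% and 50.7% of the Ttn and 79.0% and 50.1% of the Myh3. Low-bin cells of middle Mylpf numbered 65 and 89, and those of high Mylpf 10 and 15. Without the cells at a Mylpf of 7 or more, 143 of all 6253 genes tested were past the fold higher (2.29%) and 176 lower (2.81%), with a median of -0.01. In those cells 4 of 15 measured filament genes were past the fold higher with a median of 0.29, and 19 of 37 G2 and M genes were past it lower with a median of -0.39. S phase genes went from 9 of 34 to 4 of 32 past the fold higher with a median of 0.20, and Mcm2 (0.36), Mcm3 (0.22) and Pcna (0.32) no longer reached it. In the young low bin Ttn was at 145 and 80.8 CPM and Mylpf at 211 and 138 CPM, lower on 29 kPa.

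Genes outside these lists differed in both directions in the low bin. Higher on 29 kPa were the lipid carrier Apoe at 149.5 and 233 CPM, with 61.3% and 43.5% of it in the 5 highest cells, and the matrix protein Thbs2 at 30.1 and 43.0 CPM. Lower were Smpd3, a sphingomyelinase, at 25.3 and 9.31 CPM (UMI ratio 0.348, 0.262 to 0.458), the secreted protein Cthrc1 at 22.8 and 9.90 CPM and the chemokine Ccl8 at 27.0 and 12.9 CPM. Smpd3, Cthrc1 and Ccl8 reached the floor of 20 CPM on 12 kPa alone. Hmgcs1, an early enzyme of cholesterol synthesis, was at 69.5 and 47.7 CPM, among the 3 members past the fold lower of 29 measured genes of cholesterol and fatty acid synthesis (list median -0.11). With the floor on the mean of both libraries 2 of 27 were past the fold lower. Over all genes tested in the low bin the share lower was 1.43%. Ankrd1, a stretch-responsive cofactor and YAP target, was at 463 and 316 CPM (-0.54), but its ratio turned to 0.17 with Myog cuts at 8 and 12. Smpd3 and Ccl8 were each found in a minority of low-bin cells, 25.1% and 14.8% for Smpd3 and 19.2% and 14.4% for Ccl8.

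In the middle bin, which held most cells, few genes differed, and those lower on the stiff substrate included Aldh1a2, Igfbp5, Igfbp3 and Hes1. Aldh1a2, which makes retinoic acid, was at 39.2 and 19.7 CPM (UMI ratio 0.597, 0.534 to 0.668), while in the low bin it was level at 314 and 307 CPM. Its 5 highest cells held 30.1% and 40.5% of it. Igfbp5, a secreted binder of insulin-like growth factors, was at 723 and 526 CPM in the middle bin (-0.46). In the high bin it was at 666 and 468 CPM (-0.50), against 3490 and 3313 CPM in the low bin. In thinned cells, the median was 2 Igfbp5 UMIs on either substrate in the middle bin and 1 in the high bin. The thinned means were 7.04 and 5.26 UMIs in the middle bin and 6.11 and 4.72 in the high bin. The lower means of Igfbp5 thus did not show in the median cell. Its ratio was past the fold in 11 of 13 settings in the middle bin and 9 of 13 in the high bin. Igfbp3, of the same family, was at 41.2 and 29.3 CPM in the middle bin. Higher in the middle bin were slow myosin Myh7 (67.2 and 96.9 CPM), of whose last 500 bases 27.6% of the words occur in other genes, mostly Myh6, and the matrix protein Thbs1 (20.4 and 29.0 CPM). Embryonic myosin Myh3 was at 2336 and 2917 CPM there, a ratio of 0.32 that did not reach the fold. Dqx1, which resembles RNA helicases, was at 4.41 and 22.6 CPM, but its 5 highest cells held 71.2% and 67.8% of it and its ratio ranged from 0.02 to 2.12 over 13 settings. It reached the floor of 20 CPM on 29 kPa alone.

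In the high bin, 2 myogenic factors, Myf6 and Myf5, were higher on the stiff substrate, but the list of myogenic commitment factors was not. Of its 17 measured members there, 6 lay above 0 and 11 below, with a median of -0.05. Myog itself was at 4438 and 4347 CPM and Mef2c at 895 and 843 CPM. Myf6, the last of the myogenic factors to be expressed, was at 32.4 and 51.4 CPM (UMI ratio 1.58, 1.43 to 1.75), and Myf5 at 18.2 and 27.7 CPM (1.64, 1.417 to 1.904). The stretch-responsive Ankrd2 was at 16.9 and 28.7 CPM, the carbonic anhydrase Car3 at 41.6 and 65.2 CPM and Capn6, of the calpain family, at 13.7 and 21.7 CPM. Myf5, Ankrd2 and Capn6 reached the floor of 20 CPM on 29 kPa alone. The ratio of Myf6, 0.59, was 0.01 with Myog cuts at 8 and 12, and that of Car3, also 0.59, was 0.04 with cuts at 6 and 10, so both depended on where the high bin was cut. Myf6 was not higher in the middle bin, where it was most abundant at 115 and 104 CPM. Lower in the high bin were Thbs1 at 42.1 and 24.4 CPM, opposite to the middle bin, the mitochondrial carrier Slc25a24 at 87.7 and 62.4 CPM, Apoe at 34.8 and 15.4 CPM, opposite to the low bin, and the neuropeptide gene Gal at 21.8 and 10.3 CPM. The 5 highest cells held 61.4% and 52.4% of Apoe and 85.8% and 78.3% of Gal. Apoe and Gal reached the floor of 20 CPM on 12 kPa alone. The Gal ratio, -0.81, turned to 0.19 without cells of under 1% mitochondrial UMIs.

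A last group of genes is given apart, most of them for shared sequence and for ratios that lay the other way in young cells. Shared sequence alone does not set them off, since S100a4 above shares more of its words (49.3%) than Usp50 (20.6%). Of 4511 genes tested in all 3 bins, 4 were higher past the fold in every bin and 0 lower. Among those 4 were Gm10076 (596 and 1108 CPM), Gstp1, a glutathione transferase (54.3 and 92.7 CPM), and Usp50 (82.8 and 139 CPM). Bloc1s1 (11.6 and 20.4 CPM), Grcc10 (14.4 and 23.2 CPM) and the histone gene Hist1h2ap (19.6 and 64.5 CPM) were also higher when matched. Over all cells Bloc1s1, Grcc10 and Hist1h2ap reached the floor of 20 CPM on 29 kPa alone. All the genes named so far in this group share sequence with other genes: counted by the same 30-base words, 85.4% of Gm10076, 42.4% of Gstp1, 20.6% of Usp50, 53.3% of Bloc1s1, 48.3% of Grcc10 and 93.4% of Hist1h2ap occur elsewhere, while the median over 224 named genes was 0. Gm10076 shares most with the ribosomal protein gene Rpl41, which was at 6710 and 6216 CPM, and the sum of both was level at 7306 and 7324 CPM. Other sums were not level: Gstp1 with Gstp2 was at 64.6 and 111 CPM, Usp50 with its neighbour Usp8 at 122 and 176 CPM, Bloc1s1 with Rdh5 at 23.1 and 32.5 CPM and Grcc10 with Atn1 at 38.4 and 47.2 CPM. Usp50 shares most words with Polr2l (18.1%) and Grcc10 with Gm45234 (47.6%), so the sums with Usp8 and Atn1 cannot show whether counts moved between symbols. That was not tested for any of these genes. In young cells these symbols lay the other way, with Gm10076 at 837 CPM on 12 kPa and 526 CPM on 29 kPa and Gstp1 at 91.4 and 46.6 CPM. AY036118 (21.8 and 9.46 CPM) and Gm42418 (1352 and 1049 CPM), gene models known to collect reads of ribosomal RNA, were lower on 29 kPa in all 3 bins and in young cells too, with matched ratios of -0.84 and -0.41 in old and -0.86 and -0.42 in young cells. By level, Gm10076, Gstp1, Bloc1s1 and Grcc10 paired old cells on 12 kPa with young cells on 29 kPa. Gstp1, Bloc1s1 and Grcc10 also paired old cells on 29 kPa with young cells on 12 kPa. For Usp50, old cells on 12 kPa (82.8 CPM) were nearer young cells on 12 kPa (90.8 CPM) than on 29 kPa (59.98 CPM). Levels of Hist1h2ap in young cells are not given here. AY036118 and Gm42418 instead paired libraries by substrate. No gene measured here checks the substrate labels, the labels give no batch, and what these pairings mean for the other differences between 29 and 12 kPa was not tested.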

How the data were processed

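The series holds 4 single-cell libraries, young and old cells on 12 and 29 kPa, each a group of its own by its title. Libraries were made with the v3 chemistry, per the labels' protocols, and Cell Ranger 6.1.2 and Partek are named in the submitters' processing notes; genome build, annotation and cell filters are not given in the sources used here. The authors deposited 1 table per library of 13772 genes by cells, and the deposited values are log2(CPM + 1) per cell, found from the values: with the log undone, each cell sums to 1000000. Dividing by the value of 1 UMI gave whole numbers, within 0.05, for 99.9544% of values above 0 on 12 kPa and 99.9541% on 29 kPa in old cells. For 11 symbols, among them Aldoa and Sept2, they did not come out whole; these stayed in the counts of genes but were not named.

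A cell was kept if 500 genes or more were found and mitochondrial UMIs did not exceed 20%, which left out 0 of 1333 and 1 of 1739 old cells. Doublets were neither called nor removed. Mean CPM over cells was taken after undoing the log, over all cells, within each Myog bin, and as a mean of bin values weighted by the average bin shares of the 2 libraries (matched). The part of a difference due to shares is the difference in mean CPM minus that of the matched means. Log2 ratios used a pseudocount of 5 CPM. The text names the 10 highest and lowest matched ratios, the 6 at each end of each bin, up to 4 genes per list, genes past the fold in all 3 bins and a few fixed genes of the pathway and the myogenic factors, without predicted gene models; Acta1, Adam10, Atn1, Capn6, Car3, Ccne1, Cdh15, Cdk1, Gm42418, Gstp2, Hes6, Jag2, Mcm5, Myh7, Notch3, Pcna, Rbpj, Rdh5, Top2a, Usp8 and Vcam1 are not named by it and were picked with their values in view. Some genes the rule names are not reported here but stay in the counts and the scaling. The 43 lists hold 1044 genes, of which 1022 were found. Members and lists were chosen with earlier results of these data known. Promoter windows and motif counts used RefSeq, GRCm38.p6, with the first window of each symbol.

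Alternatives covered the pseudocount, the floor, scaling, cell filters, thinning to 10000 UMIs, Myog cuts and bins crossed with Mylpf or Mki67; setting the floor on the mean of both libraries, leaving out the 5 highest cells of a gene and leaving out low-bin cells with Mylpf were added after seeing the data. The calculations were checked on simulated data. Python 3.11.15 was used with numpy 2.4.6, scipy 1.17.1, pandas 2.3.3 and matplotlib 3.10.9.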

Additional observations from a re-analysis of the deposited data

Results flagged for a closer look

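For 6 genes the matched log2 ratio was past the fold higher on 29 kPa in old cells and lower in young cells. The old ratio minus the young ratio was 3.45 for Hist1h2ap (1.74 in old and -1.71 in young cells), 1.73 for Gstp1 (0.84 and -0.89), 1.52 for Gm10076 (0.85 and -0.67), 1.21 for Usp50 (0.65 and -0.57), 1.10 for Bloc1s1 (0.60 and -0.50) and 0.95 for Grcc10 (0.54 and -0.42). With 1 library per group the difference between ages was not tested. By level, the old cells on 12 kPa were nearer the young cells on 29 kPa than those on 12 kPa for Grcc10 (14.4 and 14.2 CPM), Bloc1s1 (11.6 and 10.6 CPM), Gstp1 (54.3 and 46.6 CPM) and Gm10076 (596 and 526 CPM), but not for Usp50 (82.8 CPM, beside 90.8 CPM in young cells on 12 kPa and 59.98 CPM on 29 kPa). The old cells on 29 kPa were in turn near the young cells on 12 kPa for Gstp1 (92.7 and 91.4 CPM), Grcc10 (23.2 and 20.6 CPM) and Bloc1s1 (20.4 and 17.1 CPM). Whether these library pairs share handling, an annotation or an exchanged label was not tested, and the labels give no batch; the doubt bears on every value of 29 over 12 kPa. The shared sequence of these 6 genes is given with their levels above.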

How the results depend on the processing

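No paired analysis was possible because each group holds 1 library, and for the same reason no library could be left out in turn. Of 132 recomputed counts of genes past the fold, 85 were within 1.5 times the value above, and 2552 of 2754 list medians and 1420 of 1675 ratios of single genes kept close to theirs. Counts are given here as higher then lower. A pseudocount of 20 CPM gave 7 and 15 over all cells, 3 lower when matched, 54 and 41 in the low bin, 3 lower in the middle bin and 9 and 6 in the high bin, and one of 1 CPM 24 lower in the high bin. A floor of 50 CPM, which tests fewer genes, gave 7 and 21 over all cells, 5 and 3 matched, 45 and 31 in the low bin, 5 and 2 in the middle bin and 8 and 4 in the high bin. No filter, which tests more, gave 23 and 81, 18 and 15, 352 and 284, 25 and 29, and 72 and 55. Median-of-ratios scaling gave 31 lower over all cells. Summed UMIs gave 3 lower in the middle bin, and leaving out cells under 1% mitochondrial UMIs gave 14. Thinning gave 204 and 236 in the low bin, 21 and 47 in the middle bin and 59 and 57 in the high bin. Myog cuts at 6 and 10 gave 20 and 63 in the middle bin and 7 lower in the high bin, and cuts at 8 and 12 gave 196 higher in the low bin and 69 and 84 in the high bin. Without the 5 highest cells of each gene 3 were lower in the middle bin and 7 in the high bin, and without Mylpf cells 176 in the low bin. With cuts at 6 and 10 the middle bin differed by 4.58 points and the high bin by 0.0389 points, the latter with its sign turned. The median of the secreted inflammatory list over all cells turned from -0.10 to 0.0821 at the floor of 50 CPM, that of the Notch list in the high bin to 0.0085 with no filter, and that of muscle energy enzymes in the low bin to -0.0118 without Mylpf cells. The low-bin ratio of Ankrd1 turned to 0.17 with cuts at 8 and 12, and the high-bin ratio of Gal to 0.19 without low-mitochondrial cells and 0.31 with cuts at 8 and 12. The cause of these moves was not tested, apart from the number of genes tested. Depth limits low genes most: the 95% interval of a named gene reached a median of 5.87% above its UMI ratio over all cells and 13.5% in the low bin. These widths leave out the spread between cells and that between cultures, and these data cannot give the latter.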
